A study of Mus musculus with 11 samples.

Results

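The genes described here are regulators and effectors of the cell division cycle, measured in fibroblasts sorted from the mouse thymus after dexamethasone. They were 42 symbols chosen by name and split by role into 9 regulators of G1, 12 genes of DNA replication and nucleotide supply, and 21 mitotic genes. Of these, 34 were among the 12430 genes of the count table, namely 8 G1, 10 replication and 16 mitotic genes, and all 34 passed the filter on low counts. Ccne2, Tyms, Hells, Cdk1, Bub1, Tpx2, Cenpf and Hmgb2 were not analysed here.

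In the G1 phase, D-type cyclins bind Cdk4 or Cdk6 and phosphorylate the retinoblastoma protein, which frees E2F factors to switch on the genes of DNA replication. Mitotic genes are transcribed later, from promoters that often carry a CHR element and CCAAT boxes, the binding sites of the MuvB complexes and of NF-Y. Stromal fibroblasts of a grown organ divide slowly, whereas immature thymocytes are among the most actively dividing cells of a mouse and are killed by glucocorticoids, and levels of thymocyte markers are therefore given beside the results.

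The samples were young male wild-type (WT) mice given dexamethasone, a synthetic glucocorticoid, into the peritoneum at 200 ug per 10 g body weight, and age-matched mice left untreated. Fibroblasts were collected 4 d after the injection (n = 4 libraries), 18 h after it (n = 3) or without it (n = 4). The sort took cells labelled CD45-, EpCAM+, CD34+, CD31- and PDGFRalpha+ from thymi dissociated with Liberase TH and DNase, and MARS-seq counted the 3′ ends of their polyadenylated RNA. Whether each library came from its own animal is not stated in the labels, and the p-values therefore reflect the variation among libraries, part of which may be technical.

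Libraries held 916281 to 3357113 counts, and those of 18 h replicate 2 and 4 d replicate 4 were below 1000000. Levels are given as CPM, counts per 1000000 of the normalised library size, on which 3 counts were worth 1.0 CPM in the deepest library and 3.74 CPM in the shallowest; these limits cover counting error only. The fibroblast genes of the gate were present in every library: Pdgfra lay at 50.0 to 154 CPM at 4 d, 52.3 to 80.0 CPM at 18 h and 76.7 to 149 CPM in untreated fibroblasts. Epcam, listed as positive in the sort, was at 1.09 to 5.67, 1.22 to 4.80 and 0.378 to 10.4 CPM in the same groups.

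Few cell cycle genes passed the test, and none passed it upward in any comparison. A missing call does not show that a gene was unchanged. At 18 h against untreated, 2 of 34 members fell, Stmn1 and Rrm1, and 0 rose, where 4.69% of the 10067 tested genes fell and 7.85% rose. At 4 d against untreated, 1 member fell, Ccnd1, and 0 rose, where 0.824% of all tested genes fell and 2.48% rose. At 4 d against 18 h, Ccnd1 alone fell and 0 rose, where 3.81% of all tested genes fell and 1.7% rose. DESeq2 called the same numbers of members in every comparison, and the unadjusted p of edgeR's quasi-likelihood test was below 0.05 upward for 3 members at 18 h, 0 at 4 d and 4 between the times, and downward for 7, 1 and 3. In either direction that was 29.4%, 2.94% and 20.6% of the members, where it was 28.1%, 18.3% and 21.6% of all tested genes. With both directions pooled, the shares at 18 h and between the times were near the background. By direction, 1551 of all tested genes were upward and 1276 downward at 18 h, whereas more members were downward than upward there. At 4 d the numbers over all genes were 979 and 866, and between the times 996 and 1176. The 3 comparisons share libraries, so their calls are not independent.

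**Figure D1:**
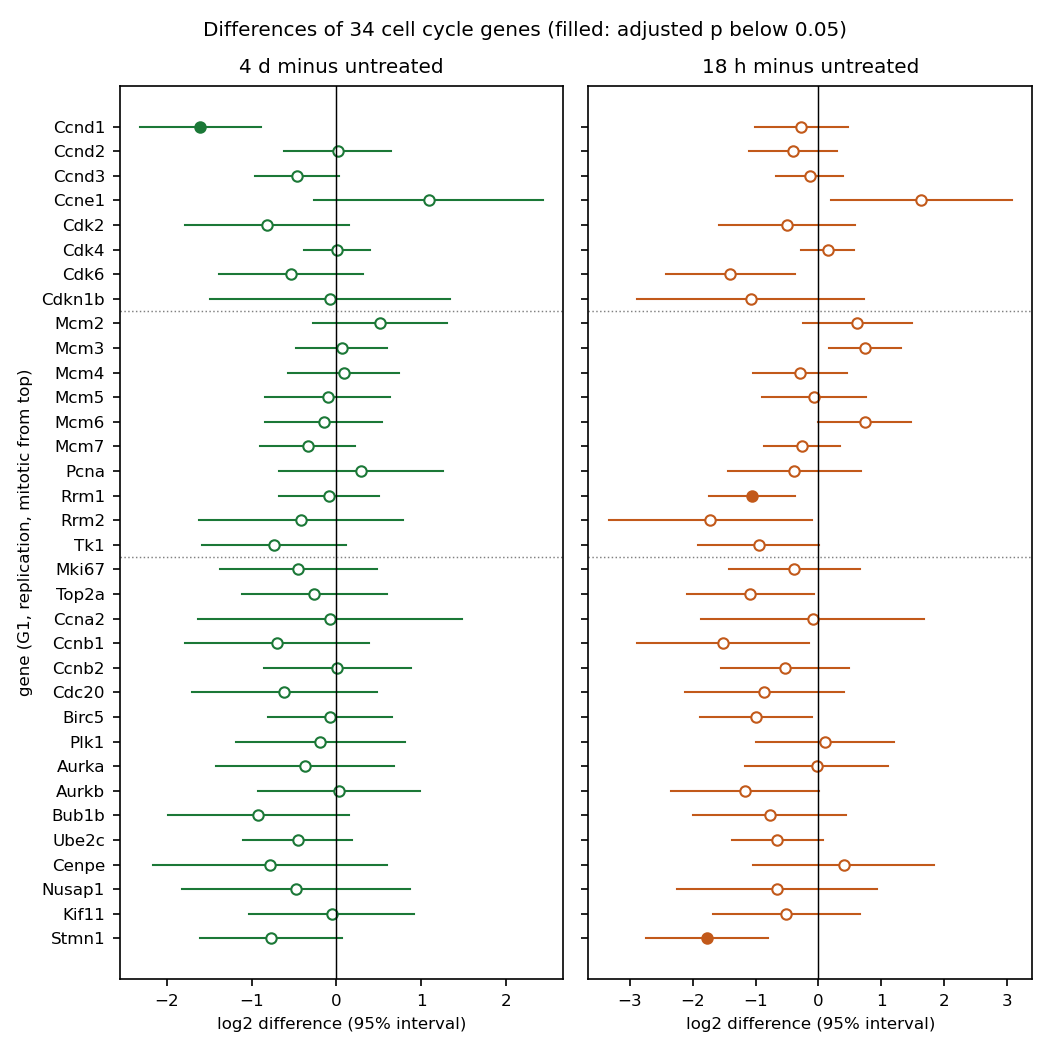
Log2 differences of the 34 members from untreated fibroblasts, 4 d on the left and 18 h on the right, with 95% intervals from edgeR's fit; filled points have an adjusted p below 0.05. Ccnd1 is the filled point at 4 d, and Rrm1 and Stmn1 are those at 18 h, where 14 of 16 mitotic genes lie left of 0.

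Among the G1 regulators, Ccnd1 was lower 4 d after dexamethasone. Ccnd1 encodes cyclin D1, the D-type cyclin that links growth factor signalling to Cdk4 and Cdk6 (protein-coding, minus strand, GRCm38 chromosome 7, 144929931 to 144939925). Its level was 22.2, 16.7, 15.3 and 27.4 CPM in the 4 libraries at 4 d, 61.3, 60.8 and 29.1 CPM in the 3 at 18 h, and 59.0, 64.4, 32.1 and 85.5 CPM in the 4 untreated libraries. All libraries at 4 d lay below all others, while the 18 h libraries overlapped the untreated ones.

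The log2 difference of Ccnd1 from untreated was -1.60 ± 0.33 at 4 d (SE; adjusted p = 0.0186), that is 0.329 of the untreated level with a 95% interval of 0.201 to 0.540. At 18 h it was -0.27, with an interval of -1.02 to 0.47. The difference between 4 d and 18 h was itself past the threshold, at -1.33 ± 0.36 (adjusted p = 0.0448). These calls depended on single libraries. The difference from untreated lost its call without 4 d replicate 2 (-1.52, adjusted p = 0.0547), 4 d replicate 3 (-1.48, adjusted p = 0.0725), untreated replicate 2 (-1.57, adjusted p = 0.0528) or untreated replicate 4 (-1.38, adjusted p = 0.0670), over a range of 0.000671 to 0.0725 in 19 alternatives. The difference from 18 h lost it in 10 of 19, among them the removal of 18 h replicate 1 (-1.12, adjusted p = 0.194), 18 h replicate 2 (0.0997), each of the 4 d libraries (0.0569 to 0.113) and untreated replicate 2 (0.0644), with every log2 value between -1.62 and -1.12. LTO1 lies over Ccnd1 on the opposite strand, and as no source used here states that counting was by strand, reads of the pair may not be separable.

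**Figure D2:**
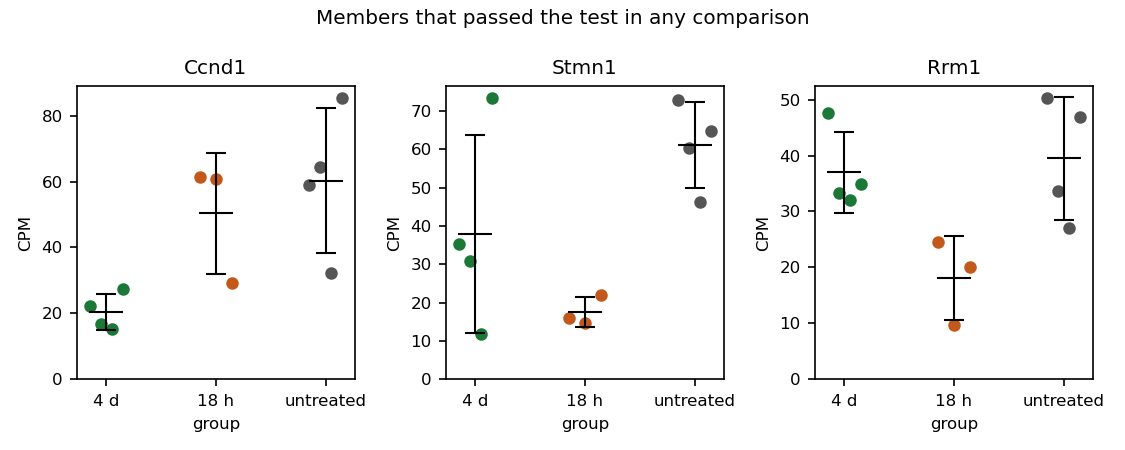
Levels of Ccnd1, Stmn1 and Rrm1 in CPM by group; each point is 1 library, the long tick is the mean and the bars are the SD (n = 4, 3 and 4). The Ccnd1 points at 4 d lie at 15.3 to 27.4 CPM, below those of the other groups, and the Stmn1 and Rrm1 points at 18 h lie below every untreated point.

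The other D-type cyclins and their kinase gave no call. Ccnd3, encoding cyclin D3, was at 247, 205, 214 and 250.4 CPM at 4 d, 229, 369 and 265 CPM at 18 h and 314, 375, 367 and 206 CPM in untreated fibroblasts, with a log2 difference of -0.46 at 4 d (95% interval -0.96 to 0.03; adjusted p = 0.306). Ccnd2, encoding cyclin D2, had a difference of 0.02 at 4 d (-0.61 to 0.65). Both overlapped the untreated libraries in each treated group. Cdk4, the kinase partner of the D cyclins, was at 211, 184, 188 and 219 CPM at 4 d, 256, 182 and 224 CPM at 18 h and 206, 186, 213 and 193 CPM in untreated fibroblasts. Its difference was 0.01 at 4 d (-0.38 to 0.39) and 0.15 at 18 h (-0.27 to 0.57). Bysl overlaps Ccnd3 and Tspan31 overlaps Cdk4 on the opposite strand.

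The remaining G1 members were low. Cdk6, the second kinase of the D cyclins, was at 6.40, 3.65 and 6.20 CPM at 18 h against 10.4, 24.1, 8.56 and 17.8 CPM in untreated fibroblasts. These groups did not overlap, but the difference of -1.40 did not pass (adjusted p = 0.0711). Ccne1, encoding cyclin E1, which drives entry into S phase with Cdk2, was at 9.06, 6.08 and 2.38 CPM at 18 h against 4.66, 1.12, 0.713 and 1.14 CPM, a difference of 1.64 (adjusted p = 0.125) that rested on 2 to 17 counts a library; without untreated replicate 1, its highest untreated library, it passed. Cdk2 had differences of -0.82 at 4 d and -0.50 at 18 h, and Cdkn1b, encoding the Cdk inhibitor p27, of -0.08 and -1.08. Cdkn1b had 0 counts in 1 untreated library and 1 library at 18 h, and at most 14 in any.

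Among the replication genes, only Rrm1 passed, and only at 18 h. Rrm1 encodes the large subunit of ribonucleotide reductase, which makes deoxyribonucleotides (protein-coding, plus strand, GRCm38 chromosome 7, 102441695 to 102469771). At 18 h it was at 24.5, 9.72 and 20.03 CPM, against 50.2, 33.6, 27.1 and 46.9 CPM in untreated fibroblasts, and the groups did not overlap. The log2 difference was -1.06 ± 0.32 (SE; adjusted p = 0.0440), 0.479 of the untreated level with a 95% interval of 0.298 to 0.771. As in any bulk sample, fewer cells that express a gene and less RNA per cell cannot be told apart. The call was lost in 12 of 19 alternatives, among them the removal of 18 h replicate 1, 2 or 3, 4 d replicate 2 or 4, or untreated replicate 1, 2 or 4, with adjusted p of 0.0557 to 0.104 and log2 values of -1.32 to -0.83. At 4 d Rrm1 was at 47.7, 33.3, 32.0 and 34.9 CPM, within the untreated range, and its difference from untreated was -0.09 (-0.68 to 0.50). Its difference between 4 d and 18 h, 0.97, did not pass (adjusted p = 0.0978).

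Rrm2, the small subunit of the same enzyme, had a difference of -1.72 at 18 h with 0 to 6 counts a library there (adjusted p = 0.150), and Tk1, thymidine kinase of the salvage pathway, had -0.95 (adjusted p = 0.186) with no overlap between 18 h and untreated libraries. The 6 Mcm genes encode the ring-shaped helicase that unwinds replication origins, and they did not share a direction at 18 h. Mcm6 was at 36.7, 30.5, 24.7 and 14.9 CPM at 4 d, 52.2, 69.3 and 33.9 CPM at 18 h and 39.4, 19.04, 23.2 and 40.1 CPM in untreated fibroblasts, a difference of 0.74 at 18 h (adjusted p = 0.177). Mcm3 was the 1 member whose 18 h libraries all lay above the untreated ones, at 22.4, 25.5 and 21.0 CPM at 18 h against 11.9, 13.4, 12.5 and 16.3 CPM, a difference of 0.74 that did not pass (adjusted p = 0.0829). Mcm7 was at 26.9, 31.9, 19.3 and 43.6 CPM at 4 d, 34.6, 21.9 and 35.3 CPM at 18 h and 44.0, 36.4, 38.2 and 31.0 CPM in untreated fibroblasts, and Cops6 and Ap4m1 overlap it on the opposite strand. Mcm2, Mcm4 and Mcm5 had differences of 0.62, -0.29 and -0.07 at 18 h and of 0.52, 0.09 and -0.10 at 4 d, none past the threshold.

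Pcna encodes the sliding clamp of DNA polymerases. It was at 118, 151, 101.3 and 178 CPM at 4 d, 86.9, 10.9 and 152 CPM at 18 h, and 90.1, 109.8, 112 and 132 CPM in untreated fibroblasts. Its difference at 18 h, -0.38 with all libraries, depended on which was kept: it was 0.10 without 18 h replicate 2, whose Pcna level rested on 9 counts, and -1.11 without 18 h replicate 3. The median of the 10 replication genes at 18 h moved likewise, from -0.28 with all libraries to 0.00 without 18 h replicate 2 and -0.48 without 18 h replicate 3; it was -0.18 without untreated replicate 4. The mapping of reads to the processed pseudogenes of Pcna is not given, and these have no row in the count table.

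To show what the replication genes hold in common outside their levels, promoter windows from RefSeq on GRCm38.p6 (250 bases before to 50 after the start) were searched on both strands for the E2F words TTCCCGC and TTTGGCGC, the CCAAT box CCAAT and the CHR word TTTGAA. None of these words contains another. Rrm1, the called replication gene, and Mcm6, which lay on the other side of 0 at 18 h, both hold E2F words and CCAAT boxes. They are printed 5′ to 3′ in the direction of the gene, with the words found in capitals (a box on the other strand reads ATTGG).
Rrm1, chr7:102441445-102441744, plus strand: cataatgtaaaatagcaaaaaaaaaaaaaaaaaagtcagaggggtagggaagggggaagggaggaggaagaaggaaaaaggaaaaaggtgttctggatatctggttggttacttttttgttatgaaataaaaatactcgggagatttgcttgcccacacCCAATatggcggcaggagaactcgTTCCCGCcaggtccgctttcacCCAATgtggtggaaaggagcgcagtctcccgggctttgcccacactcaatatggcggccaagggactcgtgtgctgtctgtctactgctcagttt
Mcm6, chr1:128359656-128359955, minus strand: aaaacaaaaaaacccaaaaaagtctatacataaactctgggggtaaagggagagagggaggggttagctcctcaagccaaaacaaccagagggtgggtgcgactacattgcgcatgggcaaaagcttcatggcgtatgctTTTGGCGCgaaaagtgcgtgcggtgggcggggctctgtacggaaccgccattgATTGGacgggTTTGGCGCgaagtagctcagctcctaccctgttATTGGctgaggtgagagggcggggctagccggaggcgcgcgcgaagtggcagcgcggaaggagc
The capitals in Rrm1 are 2 CCAAT boxes on either side of 1 TTCCCGC, and those in Mcm6 are 2 TTTGGCGC and 2 CCAAT boxes. Of 9 replication genes with a window, 5 held an E2F word (Mcm3, Mcm5, Mcm6, Mcm7 and Rrm1), or 55.6%, against 5.79% of all 27025 genes in the promoter table. A CCAAT box was in 8 of the 9, or 88.9%, against 41.1% of all genes, and the CHR word in 1, Mcm2. A match describes letters and shows no binding, and the pair shown had log2 differences of opposite sign at 18 h.

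The mitotic genes lay mostly below untreated levels at both times, but a single one passed the test. At 18 h 14 of 16 had negative log2 differences, where 51.9% of all tested genes had one. The mitotic median was -0.66 against -0.03 over all tested genes. At 4 d the count was 14 of 16 again, where 53.6% of all tested genes were negative. The mitotic median was then -0.41 against -0.04. The comparisons share the untreated libraries. Stmn1 was the member that passed at 18 h. It encodes stathmin, which destabilises microtubules (protein-coding, plus strand, GRCm38 chromosome 4, 134468320 to 134473843).

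Stmn1 was at 15.99, 14.6 and 21.9 CPM at 18 h, against 73.0, 60.5, 46.4 and 64.7 CPM in untreated fibroblasts. Every 18 h library was below every untreated library. The log2 difference was -1.77 ± 0.46 (SE; adjusted p = 0.0221), 0.293 of the untreated level with a 95% interval of 0.149 to 0.576. Leaving out 18 h replicate 1 or 2 raised the adjusted p to 0.0852 and 0.0511, with log2 values of -1.70 and -1.68; over the 19 alternatives the value ran from -1.98 to -1.52. At 4 d Stmn1 spread widely, at 35.3, 30.8, 11.7 and 73.5 CPM, and its difference from untreated of -0.77 did not pass (-1.61 to 0.06; adjusted p = 0.312).

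Ube2c, which encodes the ubiquitin-conjugating enzyme of the anaphase-promoting complex, was at 48.8, 18.1, 27.3 and 17.4 CPM at 4 d, 29.9, 23.1 and 21.5 CPM at 18 h, and 40.9, 30.2, 40.7 and 44.7 CPM in untreated fibroblasts. Its 18 h libraries lay just below the untreated ones, and the difference of -0.65 did not pass (adjusted p = 0.227); Tnnc2 overlaps it on the opposite strand. Ccnb2, encoding cyclin B2, was at 40.7, 10.3, 20.003 and 7.47 CPM at 4 d, 13.3, 17.0 and 12.9 CPM at 18 h, and 30.0, 14.6, 18.5 and 18.5 CPM in untreated fibroblasts. It overlapped between groups, with differences of 0.01 at 4 d and -0.53 at 18 h. At 18 h Birc5, a subunit of the chromosomal passenger complex, had -0.99 (adjusted p = 0.132), Ccnb1, cyclin B1, -1.51 (0.135), Top2a, the topoisomerase that untangles sister chromatids, -1.09 (0.148), and the passenger kinase Aurkb -1.16 (0.184). Birc5 and Aurkb did not overlap between 18 h and untreated libraries. The proliferation marker Mki67 was at 13.1, 5.32, 7.001 and 2.49 CPM at 4 d, 9.59, 8.51 and 5.72 CPM at 18 h, and 12.4, 5.60, 7.13 and 15.5 CPM in untreated fibroblasts, with differences of -0.45 and -0.38 and overlapping groups. Cdc20, Bub1b, Nusap1 and Kif11 had differences of -0.86, -0.78, -0.66 and -0.51 at 18 h, and Ccna2, Aurka, Plk1 and Cenpe of -0.09, -0.03, 0.10 and 0.40, none past the threshold. Many of these counts were small: Cenpe had 4 to 12 counts in untreated libraries and 0 to 10 at 4 d, and Aurkb had 0 in 18 h replicate 2.

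The promoter of Ccnb2 is printed, from the same table, because its group differs from the replication genes in the words found.
Ccnb2, chr9:70421505-70421804, minus strand: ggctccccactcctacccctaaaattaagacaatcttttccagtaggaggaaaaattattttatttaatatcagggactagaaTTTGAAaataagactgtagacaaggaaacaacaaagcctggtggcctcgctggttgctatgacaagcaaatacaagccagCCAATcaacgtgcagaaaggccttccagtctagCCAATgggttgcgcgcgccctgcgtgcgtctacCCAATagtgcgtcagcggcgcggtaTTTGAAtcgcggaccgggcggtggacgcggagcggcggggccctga
The capitals are 2 CHR words and 3 CCAAT boxes. The CHR word was in 9 of 13 mitotic genes with a window (Aurka, Bub1b, Ccnb2, Cdc20, Kif11, Mki67, Plk1, Top2a and Ube2c), or 69.2%, against 20.2% of all genes. A CCAAT box was in 11 of the 13, or 84.6%, against 41.1%, and an E2F word in 0. Of 6 G1 genes with a window, 0 held the CHR word, 3 a CCAAT box and 1, Cdk2, an E2F word. In all, 28 of the 34 members had a window.

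**Figure D3:**
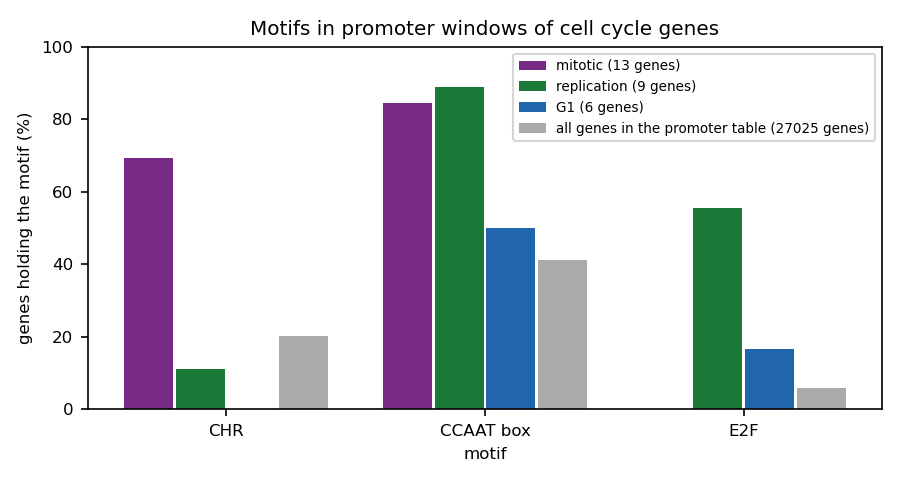
Share of genes, in percent, whose 300-base promoter window holds the CHR word, a CCAAT box or an E2F word, for mitotic (13 genes), replication (9) and G1 genes (6) and for all 27025 genes of the table (grey). CHR is most frequent among the mitotic genes (69.2%) and E2F among the replication genes (55.6%).

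The mitotic genes were low as a group in all 18 h libraries, and highest as a group in 1 library at 4 d. Their summed level was 276.9, 117.6, 134.0 and 153.2 CPM at 4 d, 155.7, 132.4 and 102.0 CPM at 18 h, and 263.6, 199.9, 199.4 and 268.7 CPM in untreated fibroblasts. All 18 h libraries were below all untreated libraries, whereas 4 d replicate 1 was above all others; that library was the highest of its group in 13 of 16 mitotic and 7 of 10 replication genes. Without Stmn1 the sums at 18 h were 139.7, 117.9 and 80.1 CPM against 190.6, 139.4, 153.0 and 204.0 CPM, and the lowest untreated library was then level with the highest one at 18 h. The median log2 difference of the mitotic genes between 4 d and 18 h was 0.22 with all libraries, -0.22 without 4 d replicate 1 and 0.50 without 18 h replicate 1. That between 4 d and untreated was -0.41, -0.78 without 4 d replicate 1, -0.22 without 4 d replicate 2 and -0.21 without untreated replicate 4.

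The summed level of the replication genes was 331, 307, 236 and 331 CPM at 4 d, 288, 169 and 310.4 CPM at 18 h, and 287, 274, 274 and 344 CPM in untreated fibroblasts, and the groups overlapped. The G1 sum was 552, 462, 489 and 557 CPM at 4 d, 613, 642 and 569.8 CPM at 18 h, and 658, 698, 659.5 and 568 CPM in untreated fibroblasts. All libraries at 4 d were below all others in this sum, to which the Ccnd1 and Ccnd3 levels above contribute. The median log2 difference of the G1 genes was -0.27 at 4 d (-0.47 without untreated replicate 1 and -0.15 without untreated replicate 2), -0.34 at 18 h (-0.54 without 18 h replicate 1) and -0.23 between 4 d and 18 h, where it was 0.02 without 18 h replicate 1. That of the replication genes was -0.10 at 4 d and 0.09 between 4 d and 18 h. Neither held its sign when each library was left out: at 4 d it ran from -0.27 without 4 d replicate 1 to 0.07 without untreated replicate 4, and between the times from -0.15 without 4 d replicate 1 to 0.27 without 18 h replicate 1.

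**Figure D4:**
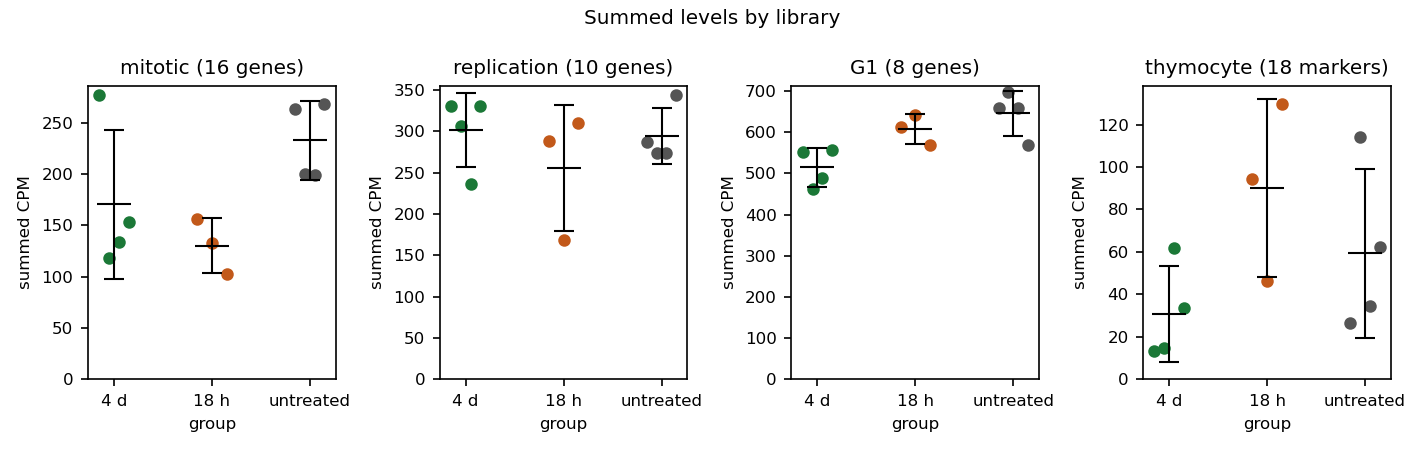
Summed CPM of the 16 mitotic, 10 replication and 8 G1 genes and of 18 thymocyte markers by group; points are libraries, the long tick is the mean and the bars are the SD (n = 4, 3 and 4). The mitotic sums at 18 h (102.0 to 155.7 CPM) lie below the untreated ones, and 4 d replicate 1 has the highest mitotic and the lowest thymocyte sum.

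Of all 34 members, 7 were lower in every 18 h library than in every untreated one, or 20.6%, where 11.5% of all tested genes were so: Stmn1, Birc5, Aurkb, Ube2c, Rrm1, Tk1 and Cdk6. In the other direction Mcm3 alone separated, 2.94% of the members, where 12.2% of all genes did. At 4 d against untreated, 1 member separated downward (Ccnd1) and 0 upward, where 6.56% and 8.07% of all genes did. Between 4 d and 18 h, Ccnd1 and Mcm3 separated downward and Rrm1 upward, where 10.5% and 9.52% of all genes did. The interval of the log2 difference lay wholly within 1 of 0 for 12 members at 4 d and 4 at 18 h, and for the other members a 2-fold difference in at least 1 direction was not excluded at this depth.

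**Figure D5:**
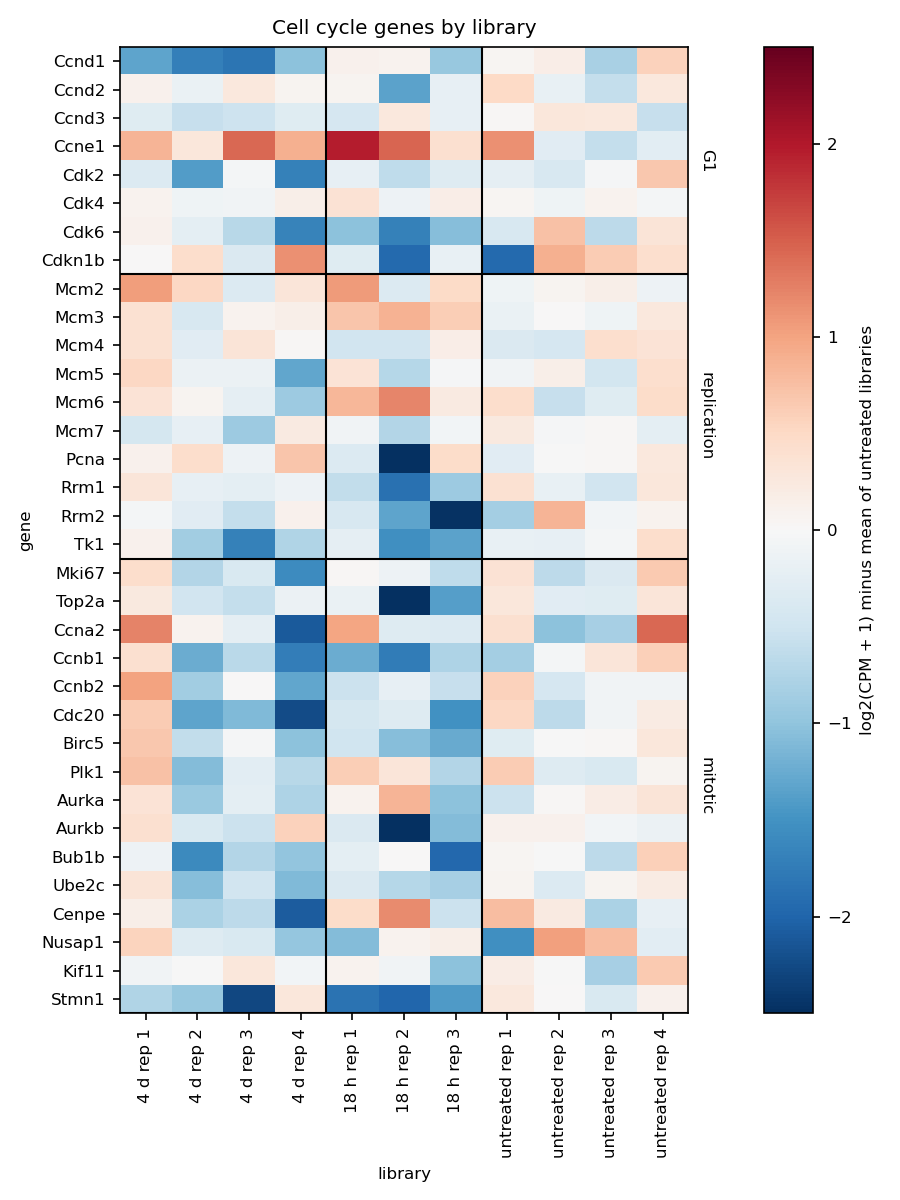
Level of each member by library as log2(CPM + 1) minus the mean of the untreated libraries (colour, drawn to 2.5 either side of 0), with G1, replication and mitotic genes from top to bottom and 4 d, 18 h and untreated libraries from left to right. Ccnd1 is low in all 4 libraries at 4 d, and the column of 4 d replicate 1 is red for most mitotic genes.

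Thymocyte markers and mitotic genes ranked the libraries differently. The 18 thymocyte markers in the table, of 28 listed, summed to 13.5, 14.5, 61.7 and 33.6 CPM at 4 d, 94.4, 46.2 and 129.7 CPM at 18 h, and 26.4, 114.2, 34.2 and 62.1 CPM in untreated fibroblasts. The sum includes Ptprc, a gene of all white blood cells, so neither it nor the covariate made from it measures thymocytes alone. The 18 h libraries, all below the untreated ones in mitotic sum, overlapped them in thymocyte markers, with 2 of 3 above at least 3 of the 4 untreated libraries. The separation in mitotic sum needed Stmn1. Without it, 18 h replicate 1 was at 139.7 CPM and untreated replicate 2 at 139.4 CPM. The library with the highest mitotic sum, 4 d replicate 1, had the lowest thymocyte sum. Of the defining genes, Cd8a and Ptcra were not analysed here, Rag1 was at 0 in all 18 h libraries, 3 of 4 at 4 d and 1 untreated library, and Cd3d, Cd3e, Cd4 and Dntt did not exceed 7.28 CPM in any library. Of 6 thymocyte markers tested, 1 rose at 18 h, Ptprc, the CD45 gene that all white blood cells share, by 2.34 (adjusted p = 0.0369). At 4 d against untreated 0 passed, with 1 at an unadjusted p below 0.05, and between 4 d and 18 h, beside the call of Ccnd1, Ptprc fell by 2.81 (adjusted p = 0.0337) and Cd2, a T cell adhesion receptor, by 2.13 (adjusted p = 0.0456).

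With the log2 thymocyte sum as a covariate, the difference of Stmn1 at 18 h was -1.71 (adjusted p = 0.0339) and that of Ccnd1 at 4 d was -1.62 (adjusted p = 0.0236), whereas Rrm1 at 18 h no longer passed (-1.01, adjusted p = 0.0711), nor did Ccnd1 between the times (-1.35, adjusted p = 0.0937). In that fit Mcm6 was the 1 of 34 members that passed between 4 d and 18 h (-1.47, adjusted p = 0.0339, against -0.89 and 0.154 without the covariate). Over all 10067 tested genes, 451 rose and 475 fell between the times in that fit, against 171 and 384 without the covariate. The median of the mitotic genes between the times was then -0.09. Markers of other cells were also summed at 18 h. The 8 fibroblast markers summed to 11467, 5780 and 14615 CPM, against 16297 to 25086 CPM in untreated fibroblasts. Of the 8, only Col1a2 passed downward (-1.14, adjusted p = 0.0326), and Pdgfrb passed upward (1.86, adjusted p = 0.00621). The 10 endothelial markers summed to 707, 214 and 475 CPM, against 206 to 324 CPM. The 11 macrophage markers summed to 325, 146 and 369.6 CPM at 18 h, against 75.6 to 196 CPM. In both sums 18 h replicate 2 lay within the untreated range. Of 7 endothelial markers tested at 18 h, 4 passed edgeR's test upward and 0 downward. Kdr went the other way (-1.44, adjusted p = 0.0605), with no overlap between the groups. Of 9 macrophage markers tested, 3 passed upward and 0 downward, and Csf1r had -0.82 (adjusted p = 0.337). Pecam1, the CD31 gene excluded by the gate, was at 122, 14.6 and 42.9 CPM at 18 h, against 2.59, 0, 2.14 and 3.78 CPM. The part of endothelial, macrophage or fibroblast content in the cell cycle values at 18 h was not tested.

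Other genes of the same pathway gave few calls too. Of 137 further cell cycle genes, 125 were in the table and 98 were tested. At 18 h 1 of the 98 rose and 5 fell, where 7.85% and 4.69% of all tested genes did, and at 4 d 1 rose and 1 fell, where 2.48% and 0.824% did. Between the times 0 passed, and 16, or 16.3%, had an unadjusted p below 0.05 by edgeR's test, where 21.6% of all genes had one. Their medians were -0.71 for 33 mitotic, -0.12 for 32 replication and -0.18 for 33 G1 genes at 18 h, and -0.28, -0.07 and 0.07 at 4 d.

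Mitotic genes among these were Cdca3, a trigger of mitotic entry, and Mad2l1, which encodes the spindle checkpoint protein MAD2. Cdca3 was at 15.5, 3.65 and 4.77 CPM at 18 h, against 34.2, 20.2, 30.0 and 36.7 CPM in untreated fibroblasts, and fell by 1.83 ± 0.45 on the log2 scale (SE; adjusted p = 0.0182; 0.0683 without 18 h replicate 3 and 0.0612 without the libraries under 1000000 counts). Mad2l1 was at 4.80, 3.65 and 4.29 CPM at 18 h, against 6.73, 11.2, 15.3 and 11.7 CPM, and fell by 1.38 ± 0.40 (adjusted p = 0.0393). The groups of both genes did not overlap, but Mad2l1 kept its call in only 8 of 19 alternatives and lost it without any 1 of the 18 h libraries, 4 d replicate 2 or untreated replicates 2, 3 or 4 (adjusted p 0.0522 to 0.111).

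The other calls were on the G1 list and went in both directions. Foxo1, a transcription factor that induces Cdk inhibitors, was at 21.1, 25.2, 29.0 and 33.6 CPM at 4 d, 21.3, 29.2 and 13.8 CPM at 18 h, and 58.5, 51.5, 51.0 and 51.1 CPM in untreated fibroblasts. Every treated library was below every untreated one. Foxo1 fell by 1.35 ± 0.27 on the log2 scale at 18 h (adjusted p = 0.00588), the only call among the named cell cycle genes that held in all 19 alternatives, with adjusted p up to 0.0323. At 4 d it fell by 0.98 ± 0.24 (adjusted p = 0.0378), a call lost without 18 h replicate 1, 4 d replicate 1, 2 or 3, or any 1 untreated library (adjusted p 0.0513 to 0.102). A replicate block also lost the call at 4 d (adjusted p = 0.116).

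Cdkn1c, encoding the Cdk inhibitor p57, was at 53.8, 29.2 and 67.7 CPM at 18 h, against 117, 277, 205 and 150.2 CPM in untreated fibroblasts, and fell by 1.87 ± 0.47 (adjusted p = 0.0195; 0.0638, 0.0562 and 0.0545 without 18 h replicate 1, 18 h replicate 2 or untreated replicate 2, and 0.0784 without the libraries under 1000000 counts). Gas1, a membrane protein first found in growth-arrested fibroblasts, was at 219, 123 and 377 CPM at 18 h, against 529, 1010, 804 and 479 CPM, and fell by 1.55 ± 0.38 (adjusted p = 0.0164; 0.0695 without 18 h replicate 1). At 4 d Cdkn1c and Gas1 had differences of -0.49 and -0.56 that did not pass. Both were lower in every 18 h library than in any untreated one, whereas Cdkn1a and E2f4 of the same list separated upward at 18 h.

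Cdkn1a, encoding the Cdk inhibitor p21, was at 682, 876, 955 and 643 CPM at 4 d, 453, 411 and 821 CPM at 18 h, and 407, 361, 166 and 295 CPM in untreated fibroblasts. All treated libraries were above all untreated ones. It rose by 1.36 ± 0.30 at 4 d (adjusted p = 0.0247), while its difference of 0.87 at 18 h did not pass (adjusted p = 0.0860). The call at 4 d was lost without 4 d replicate 2 or 3 or untreated replicate 2, 3 or 4 (adjusted p 0.0544 to 0.0792). A replicate block also lost it (adjusted p = 0.0969). E2f4, a repressive E2F of resting cells and a subunit of the DREAM complex, was named after its values were seen. Of the further cell cycle genes tested, it was the 1 that passed edgeR's test upward at 18 h. It was at 72.5, 104 and 93.9 CPM at 18 h, against 47.6, 54.9, 52.1 and 31.0 CPM, and rose by 0.96 ± 0.24 (adjusted p = 0.0195). The adjusted p was 0.0548 without untreated replicate 4 and 0.0551 with a replicate block.

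The authors' deposited table, whose log2 fold changes run untreated over 18 h or 4 d, holds the same calls among the members at its adjusted p below 0.05. In the authors' deposited table, turned to treated over untreated, Stmn1 had -1.78 and Rrm1 -1.05 at 18 h (adjusted p = 0.00317 and 0.0249), and Ccnd1 -1.59 at 4 d (adjusted p = 0.000760). The authors' deposited table also had Ccnd1 at -1.33 for 4 d over 18 h (adjusted p = 0.0145). For the 125 further cell cycle genes it held more calls than edgeR's test. At 18 h it had 4 higher and 7 lower, where edgeR's test had 1 and 5. At 4 d it had 3 higher and 1 lower, where edgeR's test had 1 of each. Between the times it had 1 higher and 1 lower, where edgeR's test had 0.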

How the data were processed

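The samples were 11 MARS-seq libraries of sorted thymic fibroblasts, 4 at 4 d, 3 at 18 h and 4 untreated. For the later group the titles give 3 d but the time labels 4 d, and 4 d is used here. Untreated libraries carry the numbers of their titles, which differ from those of their count columns for replicates 2, 3 and 4. The submitters' processing notes name STAR 2.5.2b and HTSeq on build mm10, besides bcl2fastq, cutadapt and DESeq2; for strand setting, annotation and collapsing of molecular identifiers, the choice is not given in the sources used here.

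Raw counts by gene symbol, as the authors deposited them, entered every test. The authors' deposited log2 fold changes and adjusted p-values are quoted only where named; 22 further columns of normalised values per sample were not used. The 15 replicate pairs differed by more than sampling noise (lowest chi-square divided by its degrees of freedom 4.79).

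Genes were filtered with filterByExpr at a minimum count of 10 (10067 kept) in edgeR 4.0.16 (R 4.3.3), scaled by TMM and fitted in 1 robust quasi-likelihood model of all 11 libraries with group as the only term. Adjusted p-values are Benjamini-Hochberg over all tested genes, with a threshold of 0.05. The SE is the log2 difference divided by the square root of F. The fit was tested on simulated data. Alternatives were RLE scaling, DESeq2 1.42.0, no filter, a minimum count of 20, fits of the 2 groups compared, each library left out, a replicate block, the libraries under 1000000 counts left out, and the log2 thymocyte marker sum (plus 1 CPM) as a covariate.

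Values in every library are given for members that passed in any comparison and for the 3 members of each role with the highest mean CPM. Of the other cell cycle genes, up to 3 per role and comparison with the smallest adjusted p are named. Members and lists were chosen with earlier results of these data known. Symbols H2afz and H2afx were matched through synonyms. Gene spans come from the GENCODE annotation of GRCm38, equal in sequence to mm10.

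Libraries of different groups with the same title number did not deviate together (correlations of -0.34 to 0.19 over 10 pairs). The title numbers were therefore not used to pair samples. By count column, untreated replicate 2 shares its number with 18 h replicate 3 (0.36) and 4 d replicate 3 (0.02). Untreated replicate 3 likewise shares its number with 4 d replicate 4 (-0.004). Pairing by column number was not tested.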

Additional observations from a re-analysis of the deposited data

Results flagged for a closer look

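Foxo1 in untreated replicate 1 was at 58.5 CPM, while its 3 companions lay at 51.0 to 51.5 CPM. The summed endothelial markers of untreated replicate 1 were at 324 CPM, and 206 to 211 CPM in the rest of that group. The summed macrophage markers of untreated replicate 2 were at 196 CPM, against 75.6 to 94.2 CPM in the others. In each, the gap to the nearest library, as a share of the group's range, was above the critical value of Dixon's test. Such gaps were looked for in 52 groups of 4 libraries and 3 were found, where chance gives about 1 in 20. Ccnd1 differed between the times, by a log2 difference of -1.33 between 4 d and 18 h that passed edgeR's test (adjusted p = 0.0448). That call was lost in 10 of 19 alternatives.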

How the results depend on the processing

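Depth limits the lowest members most, and 4 d replicate 4 and 18 h replicate 2 have the fewest counts. The members that fell at 18 h numbered 2, and 1 in fits of the 2 groups compared, without the libraries under 1000000 counts or with the thymocyte covariate (Stmn1 in each), 0 with a replicate block, and 0 to 2 when each library was left out; those that rose numbered 0 to 1 (Ccne1, without untreated replicate 1). The member that fell at 4 d numbered 1, and 0 to 1 when each library was left out. Between 4 d and 18 h it numbered 1, and 0 in fits of the 2 groups or without the libraries under 1000000 counts. It numbered 0 to 1 when each library was left out. With the thymocyte covariate it was again 1, Mcm6 in place of Ccnd1, where calls over all genes were 451 upward and 475 downward. The cause was not tested. Without 18 h replicate 1, Top2a passed downward at 18 h in place of Stmn1 and Rrm1. RLE scaling and DESeq2 kept the 2, 1 and 1 calls. Of 12 calls of named cell cycle genes, 1 held in all 19 alternatives, and of 39 results not called, 4 passed in some alternative. No result changed sign where it was called in the main fit or in the alternative. Some results without a call did change sign, such as Pcna at 18 h (-1.11 to 0.10) and Ccnb2 at 4 d (-0.61 to 0.25). The replicate block, which used title numbers, is not backed by the data as a pairing, since 0 of 11 libraries correlated best with their own title number. With the block, Stmn1 at 18 h had an adjusted p of 0.0631 and Rrm1 0.0677, and over all genes the calls upward and downward were 443 and 205 at 18 h (790 and 472 without the block), 46 and 14 at 4 d (250 and 83), and 74 and 231 for 4 d over 18 h (171 and 384).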
